A study of Mus musculus with 6 samples.

Results

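The 10 genes described here encode the core of the YAP pathway and the stretch-gated channel Piezo1. They were chosen by symbol from a table of 33017 genes: the coactivators Yap1 and Wwtr1, their DNA-binding partner Tead1, the kinases Lats1 and Lats2, the target genes Ccn1, Ccn2, Ankrd1 and Amotl2, and Piezo1. All 10 symbols were found, and 9 had enough counts to be tested (not Ankrd1). The table holds poly-A RNA read counts from frozen mouse small intestine, in 3 libraries labelled control and 3 labelled model. The title of the series names simulated microgravity and radiation and a protective compound, and the design text speaks of the joint effect of both factors. The labels give no strain, sex, age, dose, intestinal segment or duration, do not say what the model animals received, and mark no library as given the compound. They also do not state whether each library is a separate animal, so the spread behind every p-value is that of libraries and may be technical.

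In the Hippo pathway, the MST kinases (Stk3, Stk4) with the scaffold Sav1 activate LATS1 and LATS2, which phosphorylate the coactivators YAP (Yap1) and TAZ (Wwtr1) and keep them in the cytoplasm. When cells spread, stretch or build actin tension, YAP and TAZ enter the nucleus, bind TEAD factors and switch on genes such as Ccn1, Ccn2, Ankrd1 and Amotl2. In the intestine YAP is known for its part in crypt regeneration after injury, including radiation. PIEZO1 is a cation channel that opens when the membrane is stretched. YAP and TAZ are controlled largely by phosphorylation and location, which RNA counts do not measure.

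Library totals ran from 35007515 to 45285564 counts, and levels are given as CPM, the count scaled to the library total after adjustment by the TMM factor. Some libraries differed in ways that the groups do not explain. Control 3 stood apart in most segment markers: the ileal bile acid carrier Slc10a2 was at 648 CPM there and at 1.11 to 4.60 CPM elsewhere, and the proximal factor Gata4 at 1.90 CPM there and at 214 to 255 CPM elsewhere. The proximal marker Slc40a1 (224 CPM in control 3, 169 to 993 CPM elsewhere) and the distal markers Muc13 and Tff3 did not stand apart there. Model 3 held 6650 CPM of 8 exocrine pancreas markers, against 5.11 to 28.2 CPM in the others. The 7 B cell markers summed to 301 CPM in control 3 and 187 CPM in model 3, against 13.1 to 43.5 CPM in the others. Model 1 had lower values for long transcripts. Over the 3895 tested genes with the longest exons (from 4874 bases) its median deviation from the gene means was -0.41 on the log2 scale, over the 3895 with the shortest (up to 1956 bases) it was 0.41, and control 3 ran the other way, at 0.26 and -0.20. In the other 4 libraries these medians lay between -0.10 and 0.11. Epithelial markers were present in every library, with sums between 8544 and 11854 CPM and none at 0.

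**Figure D1:**
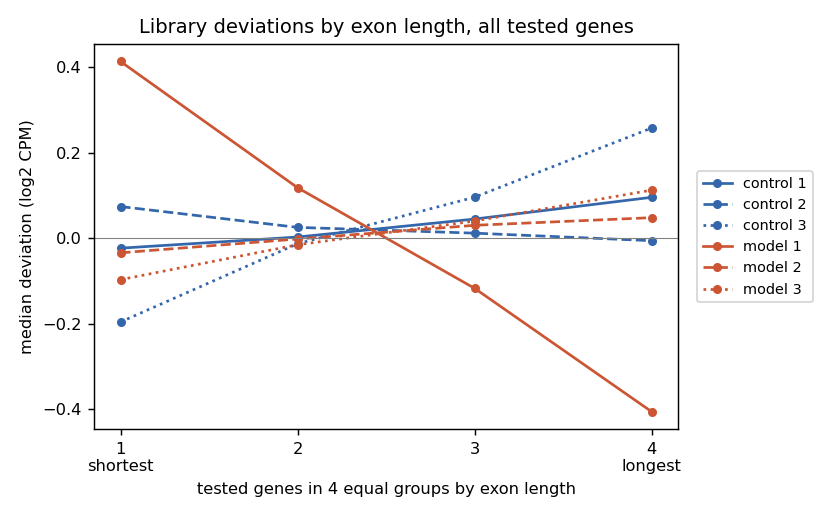
Median deviation of log2 CPM from each gene's mean over 6 libraries (vertical axis) for tested genes in 4 equal groups by exon length (horizontal axis), with 1 line per library. The line of model 1 goes from 0.41 in the shortest group to -0.41 in the longest, and that of control 3 from -0.20 to 0.26.

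No member passed the test between model and control. The test was edgeR's quasi-likelihood test over all 15904 genes with enough counts, with Benjamini-Hochberg adjusted p under 0.05 as the threshold. Of the 9 tested members 0 were called, against 0% of all tested genes (0 of 15904), and 0 had an unadjusted p under 0.05, against 4.81% (765 genes). The Wald test of DESeq2, on the table before that filter, called 31 genes and 0 members. In 7 of the 9 members the log2 fold change of model against control was below 0, with a median of -0.37, where 51.8% of all tested genes were below 0 and their median was -0.02. The members were chosen with earlier results of these data in view, so these counts are a description. For Wwtr1 and Tead1 the highest model library lay below the lowest control library, which is 2 of 9 members beside 6.33% of all tested genes. Much of this went with control 3 and model 1: control 3 was the highest library for 6 of the 9 members and model 1 the lowest for 6, against 27.5% and 30.8% of all tested genes. The median was -0.03 without control 3 and -0.09 without model 1. Without both libraries it was 0.20 and 3 of 9 members were below 0.

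**Figure D2:**
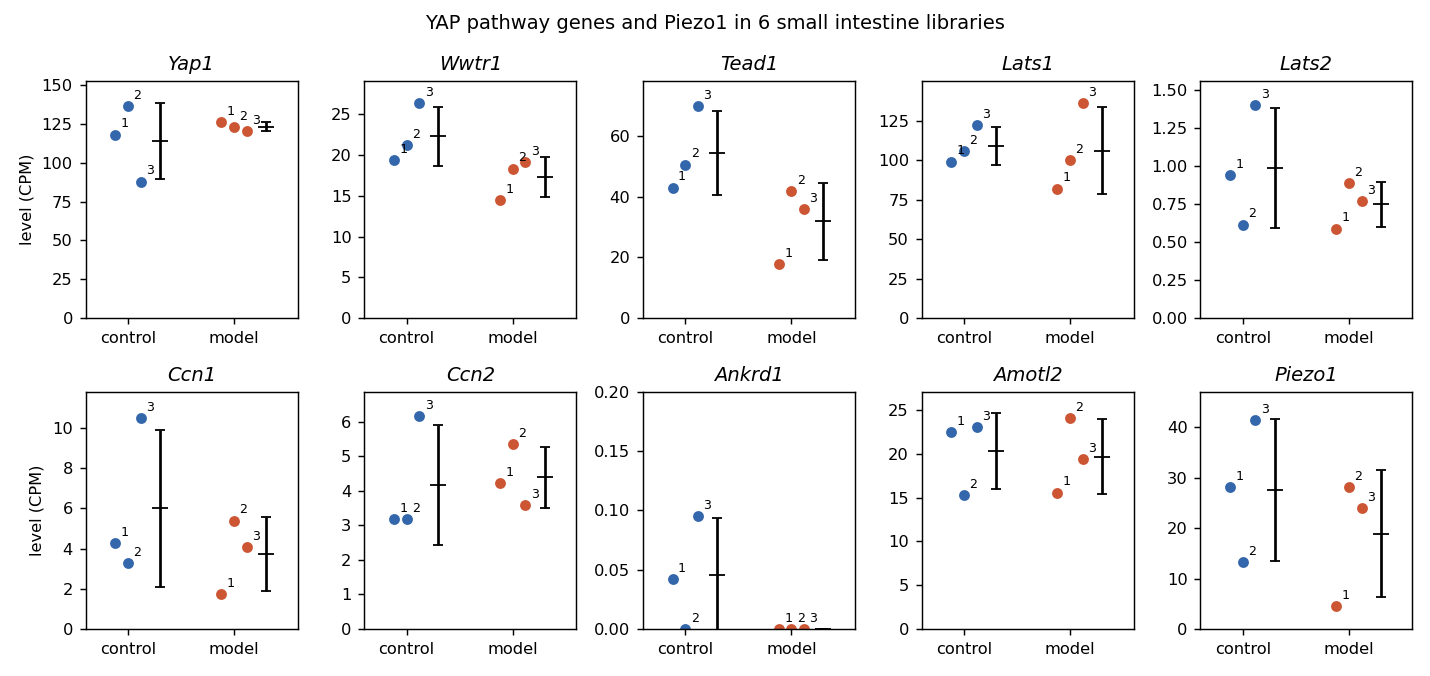
Level in CPM (vertical axes, from 0) of each of the 10 genes in the control and model libraries, with 1 point per library marked by its replicate number and the mean ± SD of 3 libraries as black bars. Wwtr1 and Tead1 do not overlap between the groups, while Ccn1 and Piezo1 are highest in control 3 and lowest in model 1.

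Yap1, the main coactivator, was the most abundant member and did not follow the other genes. It measured 118, 136 and 87.8 CPM in control 1, 2 and 3 and 126, 123 and 120 CPM in model 1, 2 and 3. The model libraries lay close together and inside the control range, and the lowest value was that of control 3, the library that stood apart in segment markers. Its log2 fold change was 0.11 (SE 0.21, 95% interval -0.38 to 0.61, edgeR adjusted p = 0.908). Scaled by library size alone it was -0.07, a change of sign that goes with a shift of -0.20 in the median of all genes under that scaling.

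Wwtr1, which encodes the YAP paralog TAZ, had 19.4, 21.3 and 26.3 CPM in the control and 14.5, 18.3 and 19.1 CPM in the model libraries. The groups did not overlap, but control 1 and model 3 nearly met. Its log2 fold change was -0.37 (SE 0.22, 95% interval -0.87 to 0.14, edgeR adjusted p = 0.851). It was -0.21 without control 3 and -0.12 without control 3 and model 1. Per exon length, on the TPM scale, Yap1 exceeded Wwtr1 in every library, by a ratio of 6.98, 7.35 and 3.82 in control 1, 2 and 3 and of 9.99, 7.67 and 7.21 in model 1, 2 and 3. The ratios of the groups overlapped, and control 3 stood below the other 5 libraries.

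Tead1, the TEAD factor that carries YAP and TAZ to DNA, had the lowest log2 fold change among the members. It measured 43.0, 50.5 and 69.7 CPM in the control and 17.8, 41.9 and 35.9 CPM in the model libraries. All 3 model values lay below all 3 control values, with model 2 just under control 1 and model 1 far below the rest. This gave a log2 fold change of -0.77 (SE 0.35, 95% interval -1.58 to 0.04), with an unadjusted p of 0.0597 and an adjusted p = 0.851 by edgeR. It stayed below 0 in each of 18 alternative analyses, from -1.01 without model 2 to -0.27 without control 3 and model 1 together, and 0 of these called it. Without model 1 it was -0.48, and with each library's trend with exon length and GC content removed -0.53. Tead1 has the longest exons of the members, at 10051 bases in the GENCODE M21 annotation.

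Smooth muscle markers lay on the same side of 0 as Tead1 and Wwtr1. All 8 had log2 fold changes below 0, with a median of -0.73. Among them Tagln (-0.12, SE 0.44) was counted at only 0.816 to 1.45 CPM. Exons of other genes share 67.9% of its exon bases, so its level is uncertain. The summed level of the 8 markers was 1297 to 2163 CPM in the control and 978 to 1273 CPM in the model libraries, with none at 0. Among the model libraries this sum was highest in model 1 (1273 CPM), which was the lowest library for both Tead1 and Wwtr1. The 3 markers of interstitial pacemaker cells summed to 47.3 to 93.7 CPM in the control and 29.5 to 41.7 CPM in the model libraries, also with none at 0. Fibroblast markers had 7 of 8 members below 0, with a median of -0.68, but their sums overlapped, at 455 to 1559 and 437 to 1126 CPM. Striated muscle markers had 5 of 5 tested members below 0, with a median of -0.91. Their sums were 24.1 to 74.0 CPM in the control and 12.0 to 20.7 CPM in the model libraries. The highest sum was that of control 3, where Acta1 alone was at 60.8 CPM. Mesothelial markers were below 0 in 4 of 4 (median -1.87, sums of 5.72 to 19.9 and 1.47 to 8.01 CPM), B cell markers in 7 of 7 (median -0.59) and enteric neuron and glia markers in 7 of 8 (median -0.19). Epithelial markers had a median of 0.02 and endothelial markers one of 0.06. Control 3 was the highest library for 62.5% of smooth muscle, 62.5% of fibroblast, 66.7% of pacemaker, 75% of mesothelial and 100% of B cell markers. This compares with 27.5% of all tested genes. For striated muscle it was 40%, for neuron and glia 12.5%, for endothelial 12.5% and for epithelial markers 0%. The part of these cell types in the values of Tead1 and Wwtr1 was not tested, and in bulk tissue fewer cells of a type and less RNA per cell cannot be told apart.

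The other TEAD genes and the VGLL cofactors, which compete with YAP for TEADs, had 4 of 5 tested members below 0 and a median of -0.15, with 0 called. Tead3, their most abundant TEAD, measured 30.2 ± 4.86 CPM in control and 31.0 ± 2.52 in model tissue (SD, n = 3). Tead2 had 4.62 ± 0.246 and 4.22 ± 1.19 CPM, and Tead4 2.95 ± 0.951 and 2.02 ± 0.538 CPM. Vgll4, a repressor of TEAD activity, had a log2 fold change of -0.15 (SE 0.26). Of the untested cofactor genes, Vgll1 was at 0 in all 6 libraries and Vgll2 had a control mean of 0.0396 CPM and was at 0 in the model libraries.

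**Figure D3:**
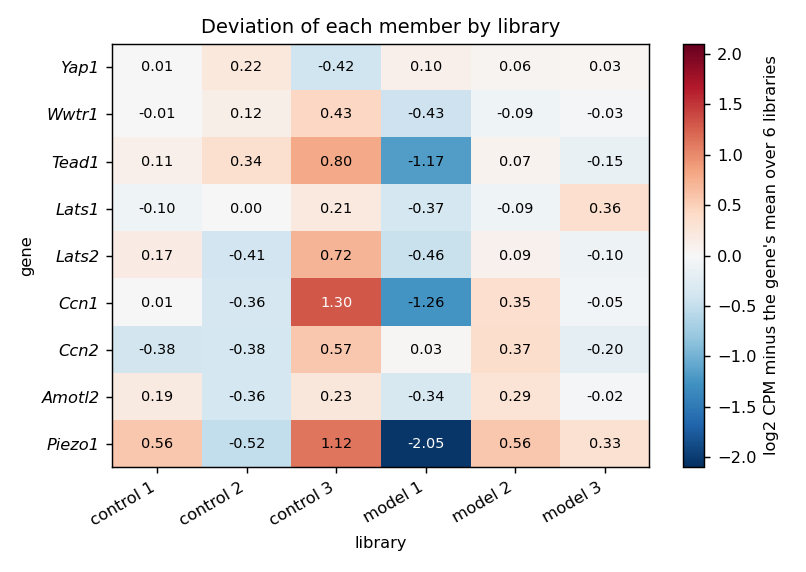
Log2 CPM of each tested member in each library minus the gene's mean over the 6 libraries, as colour and number. Control 3 is above 0 for every gene but Yap1 (-0.42), and model 1 reaches -2.05 for Piezo1 and -1.17 for Tead1.

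Of the LATS kinases, which inhibit YAP and TAZ, only Lats1 was well measured. Its levels were 99.1, 106 and 122 CPM in the control and 81.9, 99.8 and 136 CPM in the model libraries. The model libraries spanned the whole control range, with the lowest value in model 1 and the highest in model 3. Model against control, this was a log2 fold change of -0.04 (SE 0.23, edgeR adjusted p = 0.968), and it was 0.20 without control 3 and model 1 and 0.13 with the length and GC trends removed. Lats2, itself induced by YAP in many cells, was at 0.939, 0.615 and 1.40 CPM in the control and 0.588, 0.885 and 0.769 CPM in the model libraries, from 17 to 59 counts per library. Its groups overlapped, with a log2 fold change of -0.39 (SE 0.50). Leaving out control 3 gave -0.04, leaving out model 1 gave -0.25 and leaving out control 2 gave -0.62. In the GENCODE M21 annotation 42.4% of the exon bases of Lats2 are shared with exons of other genes, and how the authors counted such reads is not given in the sources used here, so its level is uncertain.

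For the kinases and scaffolds that act with LATS, values lay on both sides of 0. Of 11 tested genes 8 had log2 fold changes below 0, with a median of -0.08, and 0 were called. Stk38, a kinase related to LATS, and the LATS partner Mob1a were the most abundant, at 180 ± 46.7 and 164 ± 16.7 CPM in control and 183 ± 9.0 and 155 ± 12.0 in model tissue. Stk4 measured 77.3 ± 8.89 and 76.4 ± 16.9 CPM, and Sav1 23.8 ± 5.11 and 23.8 ± 8.93 CPM. The other MST kinase gene, Stk3, had a log2 fold change of -0.89 (SE 0.39) with an unadjusted p of 0.0554, and control 3, at 36.0 CPM, stood above the other 5 libraries (10.1 to 15.7 CPM). Without control 3 the value was -0.34.

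Among 17 upstream regulators and YAP-binding proteins, 13 were below 0, with a median of -0.35 and 0 called. The tumour suppressor gene Nf2, which brings LATS to the membrane, measured 121 ± 14.5 CPM in control and 104 ± 26.1 in model tissue. Fat1, a giant cadherin, measured 580 ± 128 and 420 ± 203 CPM, and Ywhae, whose protein holds phosphorylated YAP in the cytoplasm, 383 ± 67.4 and 402 ± 96.1 CPM. Of the angiomotins, which bind YAP at junctions and actin, Amot and Amotl1 were lower on average. Amot measured 46.6 ± 2.49 and 35.7 ± 5.51 CPM, with no overlap of the groups, beside 6.33% of all tested genes in this direction. Amotl1 measured 25.3 ± 7.83 and 16.7 ± 5.49 CPM, with overlap. The member Amotl2 was nearly level, at 20.3 ± 4.34 and 19.7 ± 4.29 CPM. The phosphatase gene Ptpn14, also a YAP target, had a log2 fold change of -0.71 (SE 0.37, edgeR unadjusted p of 0.0961), which was -0.38 without control 3 and -0.46 without model 1. In 12 of the 17 genes model 1 was the lowest library and in 9 control 3 the highest.

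The promoters show which members carry the letters that TEAD factors bind. The TEAD core motif is GGAATG, read as CATTCC on the other strand, and it was searched on both strands in the 250 bases before the annotated start sites of RefSeq genes (build GRCm38.p6). Of the 8 members with a window 5 held it, against 14.4% of 27025 genes (3880 genes): the target genes Ccn1, Amotl2 and Ankrd1 and both coactivator genes, Yap1 and Wwtr1. Lats1, Lats2 and Piezo1 held none in these windows, and no window of Tead1 or Ccn2 was matched. A gene counted if any of its windows held the motif, and the 8 members had 10 windows. Ccn1, Amotl2 and Ankrd1 are members because they are known YAP targets, so the share of members is no test of enrichment. The windows of the 3 target genes are shown because they are the readout of the pathway, and those of Yap1 and Wwtr1 because these paralogs differed across libraries while both hold the motif; the motif is in capitals and each window runs 5′ to 3′ on the strand of the gene. They lie at chr3:145649986-145650235 on the minus strand (Ccn1), chr9:102717554-102717803 on the plus strand (Amotl2), chr19:36119845-36120094 on the minus strand (Ankrd1), chr9:8004597-8004846 on the minus strand (Yap1) and chr3:57575911-57576160 on the minus strand (Wwtr1).
Ccn1: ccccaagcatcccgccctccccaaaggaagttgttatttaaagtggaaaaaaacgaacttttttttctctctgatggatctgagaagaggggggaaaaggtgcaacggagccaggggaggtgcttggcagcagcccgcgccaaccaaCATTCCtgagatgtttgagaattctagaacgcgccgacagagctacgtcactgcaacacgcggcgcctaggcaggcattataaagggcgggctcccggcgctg
Amotl2: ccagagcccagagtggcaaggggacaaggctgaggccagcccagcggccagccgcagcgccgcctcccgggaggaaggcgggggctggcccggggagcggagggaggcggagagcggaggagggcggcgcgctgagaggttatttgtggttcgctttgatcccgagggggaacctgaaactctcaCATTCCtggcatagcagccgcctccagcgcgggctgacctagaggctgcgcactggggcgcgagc
Ankrd1: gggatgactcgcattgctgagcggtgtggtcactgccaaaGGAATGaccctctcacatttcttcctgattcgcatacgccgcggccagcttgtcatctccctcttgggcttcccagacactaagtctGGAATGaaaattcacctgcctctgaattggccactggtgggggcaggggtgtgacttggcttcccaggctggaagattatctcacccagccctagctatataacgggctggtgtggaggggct
Yap1: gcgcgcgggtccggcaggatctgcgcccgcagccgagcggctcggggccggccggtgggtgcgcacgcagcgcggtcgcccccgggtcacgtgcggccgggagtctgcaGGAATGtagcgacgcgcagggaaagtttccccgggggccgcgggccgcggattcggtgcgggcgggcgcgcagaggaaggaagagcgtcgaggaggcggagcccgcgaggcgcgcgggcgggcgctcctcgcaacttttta
Wwtr1: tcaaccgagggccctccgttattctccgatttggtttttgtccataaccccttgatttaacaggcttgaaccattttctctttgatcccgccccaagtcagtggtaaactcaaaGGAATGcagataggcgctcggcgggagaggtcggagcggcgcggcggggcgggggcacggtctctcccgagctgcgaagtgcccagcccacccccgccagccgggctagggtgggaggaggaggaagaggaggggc
The motif nearest to the start lies 98 bases before it in Ccn1, 60 bases in Amotl2 and 118 bases in Ankrd1, which holds a second at 205 bases. A match of letters is a description, not a measured binding site.

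Ccn1 encodes a matricellular protein that is an early target of YAP and TAZ. It was at 4.26, 3.29 and 10.5 CPM in the control and 1.73, 5.40 and 4.07 CPM in the model libraries. Control 3 was by far the highest and model 1 the lowest, and the other 4 libraries overlapped. Its fold change on the log2 scale was -0.68 (SE 0.57, 95% interval -2.02 to 0.65, edgeR adjusted p = 0.851). Without control 3 it was 0.0043, and without control 3 and model 1 it was 0.33.

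Ccn2, which encodes connective tissue growth factor, measured 3.17, 3.18 and 6.17 CPM in the control and 4.22, 5.35 and 3.59 CPM in the model libraries. The groups overlapped, and control 3 was again the highest. The log2 fold change was 0.07 (SE 0.37, edgeR adjusted p = 0.967), and without control 3 it was 0.48. Exons of other genes share 23.2% of its exon bases in GENCODE M21, which makes its level uncertain.

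Amotl2, a feedback inhibitor that YAP induces, was the most abundant of the 4 target genes. Its levels were 22.5, 15.3 and 23.1 CPM in the control and 15.6, 24.1 and 19.4 CPM in the model libraries, so that control 2 and model 1 were low and the other 4 lay between 19.4 and 24.1 CPM. Between the groups the log2 fold change was -0.04 (SE 0.26, 95% interval -0.64 to 0.56, edgeR adjusted p = 0.973).

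Ankrd1, a cardiac ankyrin repeat gene that stretch and YAP induce in many cell types, was barely counted. The control libraries had 2, 0 and 4 counts and the model libraries 0 each, where a count of 0 allows up to 3 counts, or 0.0680 to 0.104 CPM in the model libraries. No difference was detectable at this depth. Among 8 markers of striated muscle, where Ankrd1 is abundant, Acta1 was at 1.68 to 60.8 CPM with its highest value in control 3, Tnnt2 at 4.79 to 12.0 CPM, and Actc1 and Myl2 were at 0 in all 6 libraries.

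The 22 other YAP and TAZ target genes, all tested, lay on both sides of 0. Of these 13 had log2 fold changes below 0 and 9 above, with a median of -0.09 and 0 called. The most abundant were Dock5, at 162 ± 9.47 CPM in control and 160 ± 43.5 in model tissue, and the kinase gene Nuak2, at 89.7 ± 22.1 and 102 ± 19.8 CPM. The receptor tyrosine kinase gene Axl measured 38.6 ± 16.6 and 31.1 ± 8.84 CPM, and the stress gene Gadd45a 24.0 ± 8.52 and 28.3 ± 13.4 CPM. In 2 of the 22 genes, chosen after their values were seen, the groups did not overlap and the unadjusted p of edgeR was under 0.05. Of all tested genes 11.1% did not overlap in either direction and 4.81% had such a p. Areg, which encodes the growth factor amphiregulin, was at 7.18, 12.3 and 3.06 CPM in the control and 13.3, 21.6 and 26.1 CPM in the model libraries, with a log2 fold change of 1.44 (SE 0.50) and adjusted p = 0.851. Ccdc80, a matrix protein gene, had one of -0.73 (SE 0.29) with the same adjusted p = 0.851 by edgeR, and -0.43 without control 3.

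The other CCN genes had low counts or none. Ccn4 measured 2.44 ± 1.66 CPM in control and 1.37 ± 0.825 in model tissue and Ccn3 1.17 ± 0.899 and 1.55 ± 0.905 CPM, both with overlapping groups. Ccn6 was at 1.36, 0.668 and 0.546 CPM in the control and 0, 0.567 and 0.883 CPM in the model libraries. Ccn5 was at 0 in all 6 libraries. Ccn4 had a log2 fold change of -0.82, which was -0.11 without control 3 and -0.40 without model 1.

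Piezo1 had the widest range of the tested members, 9.07-fold from its lowest to its highest library. It measured 28.2, 13.3 and 41.4 CPM in the control and 4.57, 28.1 and 23.9 CPM in the model libraries. Model 2 lay close to control 1 and model 3 lay above control 2, so the groups overlapped widely, while model 1 was lower than all the others. The log2 fold change was -0.55 (SE 0.66, 95% interval -2.09 to 0.99, edgeR adjusted p = 0.861). It was -0.09 without model 1, -0.12 without control 3 and 0.33 without both. With the length and GC trends removed it was -0.39. Piezo1 has 8219 exon bases and the highest GC content of the members (59.0%), and exons of other genes share 24.6% of its exon bases.

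Other mechanosensitive channels had 8 of 14 tested members below 0, with a median of -0.28 and 0 called. Piezo2, known for touch and for enteroendocrine and neuronal mechanosensing, measured 4.61, 4.33 and 13.6 CPM in the control and 2.32, 3.49 and 3.88 CPM in the model libraries. Its groups did not overlap, and the log2 fold change was -1.21 (SE 0.51, edgeR unadjusted p of 0.0463, adjusted p = 0.851). Without control 3 it was -0.45. Trpm7, a channel kinase, was the most abundant of them at 89.6 ± 8.76 CPM in control and 93.6 ± 37.3 in model tissue, followed by the polycystin gene Pkd1, at 78.1 ± 21.4 and 48.6 ± 22.8 CPM. Trpv4 measured 1.54 ± 0.738 and 1.87 ± 0.657 CPM. Named after its values were seen, the stretch-sensitive potassium channel gene Kcnk2 was at 2.32, 1.68 and 6.10 CPM in the control and 1.52, 0.408 and 0.655 CPM in the model libraries. Its log2 fold change was -1.98 (SE 0.69, edgeR adjusted p = 0.851), and -1.21 without control 3. Piezo2 and Kcnk2 were lower without overlap, beside 6.33% of all tested genes. Their unadjusted p by edgeR was under 0.05, as it was for 4.81% of all tested genes.

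**Figure D4:**
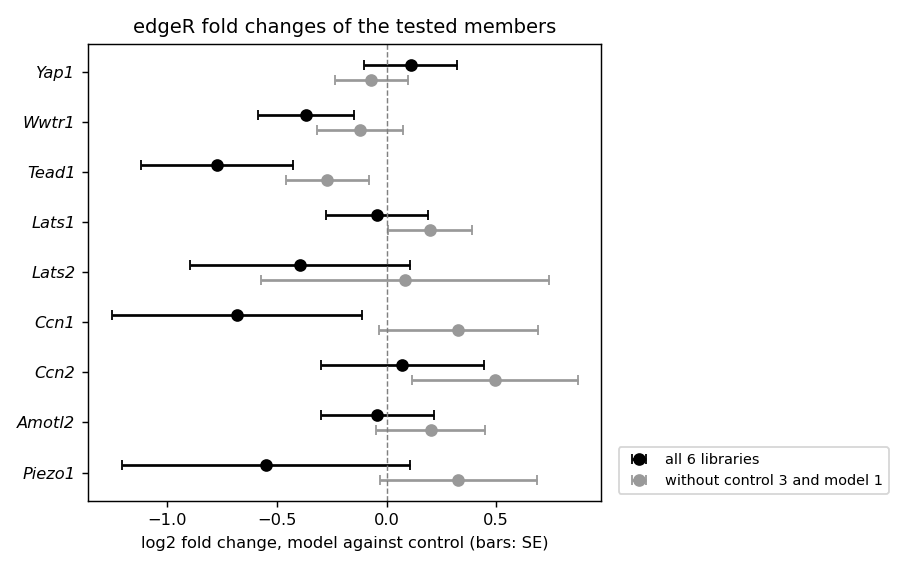
Log2 fold change of model against control (horizontal axis) with its SE for the 9 tested members, from all 6 libraries (black) and without control 3 and model 1 (grey). Tead1 and Wwtr1 stay below 0 in both, at -0.27 and -0.12 in the latter, while Ccn1 and Piezo1 turn from -0.68 and -0.55 to 0.33.

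The actin machinery through which tension reaches YAP had 12 of 20 tested genes below 0 and a median of -0.06, with 0 called. Actb and Actn4, the most abundant, measured 2582 ± 53.8 and 1138 ± 71.2 CPM in control and 2493 ± 537 and 1111 ± 151 in model tissue. The GTPase gene Rhoa had 201 ± 10.9 and 204 ± 15.3 CPM, and its effector kinase gene Rock1 114 ± 17.0 and 105 ± 21.9 CPM. The groups did not overlap for 2 lower and 2 higher genes, beside 11.1% of all tested genes in either direction: Flna and Actn1, and Zyx and Rock2. These genes were named after their values were seen. Flna and Zyx also had an unadjusted p under 0.05 by edgeR, as 4.81% of all tested genes did. Zyx, the gene of the focal adhesion protein zyxin, was at 85.5, 83.1 and 55.6 CPM in the control and 149, 110 and 112 CPM in the model libraries, a log2 fold change of 0.73 (SE 0.24). Flna, the gene of the actin crosslinker filamin A, abundant in smooth muscle, was at 514, 554 and 945 CPM in the control and 263, 380 and 362 CPM in the model libraries, a log2 fold change of -1.0 (SE 0.32) that was -0.66 without control 3. Both had an adjusted p = 0.851 by edgeR.

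SRF and its MRTF partners answer to actin as YAP does and share targets with it. Srf measured 56.8 ± 8.11 CPM in control and 46.6 ± 5.18 in model tissue, with no overlap and a log2 fold change of -0.28 (SE 0.19, edgeR adjusted p = 0.851). The immediate early genes of the list were higher on average: Fos measured 91.7 ± 29.8 and 132 ± 51.3 CPM and Junb 78.3 ± 4.28 and 104 ± 15.7 CPM, the latter with no overlap. The list had 5 of 7 tested genes above 0, a median of 0.03 and 0 called. Over all 98 tested genes of the pathway lists 61 were below 0 (62.2%), the median was -0.12, and the groups did not overlap for 8 lower and 4 higher genes, beside 6.33% and 4.73% of all tested genes.

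**Figure D5:**
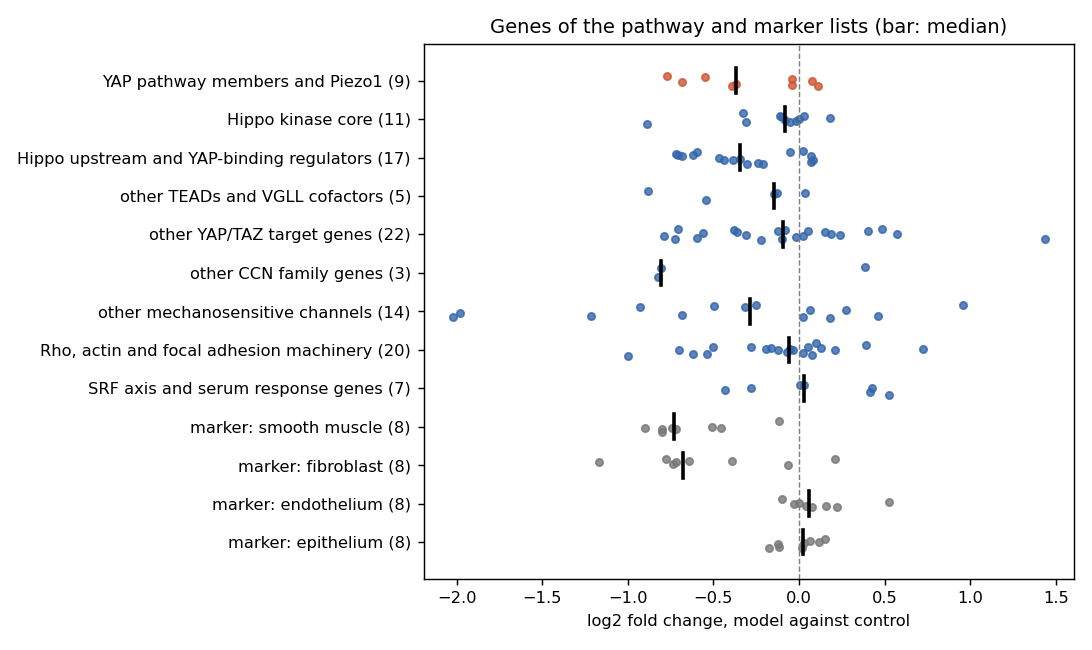
Log2 fold change of model against control (horizontal axis) of each tested gene of the members, the pathway lists and 4 marker lists, with the number of genes in parentheses and the median as a black bar. The medians are -0.37 for the members, -0.06 for the actin machinery and -0.73 for smooth muscle markers, and no gene shown was called.

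Compared per exon length, the order of the members was clear at its ends and unresolved in the middle. On the TPM scale Yap1 had 76.9 ± 11.9 in control and 71.2 ± 12.4 in model tissue, and Lats1 42.6 ± 7.04 and 35.9 ± 14.3, with no overlap between these genes in either group. Tead1 (15.5 ± 4.79), Wwtr1 (13.3 ± 2.90), Amotl2 (13.0 ± 3.46), Piezo1 (9.75 ± 5.48) and Ccn1 (8.67 ± 6.16) followed in control tissue, with differences between neighbours within their spread. In model tissue Tead1 came after Amotl2 and Wwtr1, at 8.04 ± 4.17 TPM, against 10.9 ± 4.07 and 8.92 ± 2.79 TPM. By their means Ccn2 (4.34 ± 2.07 TPM in control), Lats2 (0.439 ± 0.203) and Ankrd1 (0.0669 ± 0.0715) were the lowest in both groups. Ccn2 was not resolved from the middle, since in model 1 it was at 2.87 TPM, above Ccn1 (1.61 TPM) and Piezo1 (1.05 TPM).

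Across the 6 libraries some members varied together closely and others loosely, while Yap1 varied against them. Pearson's r of log2 CPM was 0.96 for Wwtr1 and Tead1, 0.92 for Ccn1 and Piezo1, and 0.88 for Ccn1 and Tead1. It was 0.47 for Lats1 and Lats2, 0.24 for Tead1 and Ccn2, and 0.08 for Lats1 and Ccn2. Yap1 had a negative r with each of the other 8 tested members, from -0.43 with Lats1 to -0.91 with Lats2. The deviation of Yap1 from its mean was -0.42 in control 3 and 0.0055 to 0.22 in the other libraries. These values of r thus lean on control 3. All values of r here are descriptions over 6 points that share the 2 groups and the spread of control 3 and model 1. The tested genes with the pattern most like Yap1 were Opa3 (r = 0.990), Lypd8l (r = 0.990) and Marchf8 (r = 0.986). For Ccn1 they were Myo1c, Inca1 and Ankrd44 (r = 0.995, 0.995 and 0.994), and for Piezo1 they were Rasa3, Heg1 and Map3k15 (r = 0.999, 0.998 and 0.997). Heg1 was at 9.03 CPM in model 1 and 71.2 CPM in control 3, the same libraries at which Piezo1 had its extremes.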

How the data were processed

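Poly-A RNA of 6 mouse small intestine libraries was sequenced, per the labels' protocols. The submitters' processing notes name FastQC, Trimmomatic, STAR and featureCounts with build GRCm39; their versions and settings, the annotation and the strand are not stated in those sources. Raw read counts were deposited per gene symbol by the authors, 1 column per library, and 0 columns were left unmatched. As the strand setting is unknown, overlapping genes may share reads. The members and lists were chosen with earlier results of these data known.

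After filterByExpr and TMM scaling, model and control were compared by the quasi-likelihood F test of edgeR 4.0.16 in R 4.3.3, robust, with group as its term, adjusted over 15904 genes. The code was also run on simulated counts with known changes, larger than those of the members. That run does not show how well changes of the members' size would be found. An SE is the size of the log2 fold change over the square root of its F. The biological coefficient of variation was 40.7%. Deviations use log2 CPM with a prior count of 2. Exon lengths, GC content and exon overlap came from GENCODE M21 (GRCm38), matched by symbol for 98.0% of tested genes, and no coordinates were taken from it; TPM was computed from the counts with these lengths. No 2 libraries of a group had like counts (chi-square over its degrees of freedom, 116.6 to 495.7). By rule the named genes are the members, the 2 most abundant genes of each pathway list and 20 fixed genes. For Yap1, Ccn1 and Piezo1 they include the 3 genes with the highest Pearson correlation. Other genes were named outside this rule. Those picked for a difference between the groups are marked as chosen after their values were seen. The low-count genes Vgll1, Vgll2, Ccn5, Ccn6, Ilk and Cfl1 and the single marker genes are not marked. Alternatives were scaling by RLE, upper quartile or library size alone, DESeq2 1.42.0, voom (limma 3.58.1), no filter, a filter of 5 CPM in 3 libraries, non-robust dispersion, a replicate block, and leaving out each library. Added after seeing the data were fits without control 3 and model 1, without control 3 and model 3, and with each library's lowess trends with exon length and GC content removed.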

Additional observations from a re-analysis of the deposited data

How the results depend on the processing

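The count of 0 called genes held in each alternative but DESeq2's, which called 31 genes (23 higher, 8 lower) and 0 members. No setting called a member, and adjusted p of the members ran from 0.735 to 1. The median log2 fold change of the members, -0.37, lay between -0.56 (library size alone) and -0.18 (trends removed) in the alternatives with all 6 libraries, between -0.42 and -0.03 with 1 library left out, and at -0.08 without control 3 and model 3. Without control 3 and model 1 it was 0.20. It was -0.34 with the replicate block. The replicate numbers were not taken to pair the libraries, since the labels do not say that they do. The deviations of same-numbered libraries from their group means correlated at -0.15, -0.27 and 0.31, and only control 3 was closest to its own number. With 3 libraries a group, some set apart by single cell types, these correlations cannot show whether libraries are paired. With the block 537 genes had an unadjusted p under 0.05 by edgeR, against 765. The cause of the changes below was not tested.

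The sign of these log2 fold changes, most of them near 0, differed from that with all libraries and the main settings. With RLE scaling the values were Dock5 0.013 and Stk4 0.015. With upper quartile scaling the values were Ccn2 -0.024, Stk38 -0.039, Ywhae -0.0056, Tead3 -0.036, Trpm7 -0.013, Sav1 -0.080 and Rhoa -0.050. Scaled by library size alone the values were Yap1 -0.072, Ccn2 -0.15, Stk38 -0.15, Ywhae -0.14, Tead3 -0.14, Nuak2 -0.021, Trpm7 -0.12, Sav1 -0.18 and Rhoa -0.18. With DESeq2 the values were Dock5 0.017, Actn4 0.0014 and Stk4 0.019. With limma-voom the values were Trpm7 -0.015 and Sav1 -0.040. With the stricter filter the values were Sav1 -0.035 and Rhoa -0.0039. With the replicate block the values were Trpm7 -0.011 and Sav1 -0.059. Without control 3 and model 1 the values were Yap1 -0.069, Lats1 0.20, Lats2 0.086, Ccn1 0.33, Amotl2 0.20, Piezo1 0.33, Stk38 -0.14, Mob1a 0.046, Fat1 0.036, Ywhae -0.23, Tead3 -0.0025, Dock5 0.15, Ccn4 0.30, Actn4 0.044, Stk4 0.24, Tead2 0.029, Axl 0.15, Gadd45a -0.38, Rhoa -0.085 and Rock1 0.15. Without control 3 and model 3 the values were Yap1 -0.034, Amotl2 0.069, Stk38 -0.16, Tead3 -0.089, Trpm7 -0.19, Actb 0.081 and Sav1 -0.017. With the length and GC trends removed the values were Lats1 0.13, Amotl2 0.050, Mob1a 0.0057, Ywhae -0.0023, Dock5 0.23, Actn4 0.030, Stk4 0.12, Sav1 -0.014, Rhoa -0.034 and Rock1 0.022. With 1 library left out the sign of some values turned, and the ranges were -0.031 to 0.28 for Yap1, -0.26 to 0.11 for Lats1, -1.04 to 0.0043 for Ccn1, -0.090 to 0.48 for Ccn2, -0.21 to 0.10 for Amotl2, -0.15 to 0.21 for Stk38, -0.15 to 0.0074 for Mob1a, -0.14 to 0.24 for Ywhae, -0.35 to 0.063 for Vgll4, -0.048 to 0.18 for Tead3, -0.18 to 0.19 for Dock5, -0.18 to 1.01 for Ccn3, -0.27 to 0.31 for Trpm7, -0.24 to 0.072 for Actb, -0.13 to 0.060 for Actn4, -0.11 to 0.16 for Stk4, -0.19 to 0.28 for Sav1, -0.20 to 0.58 for Gadd45a, -0.039 to 0.075 for Rhoa and -0.22 to 0.037 for Rock1. Tead1 and Wwtr1 kept their sign in all 18 alternatives. With 3 libraries a group, and B cell, pancreas or segment genes setting single libraries apart, counting error weighs most on Lats2 and Ankrd1, which had at most 59 and 4 counts in a library. Lats2, Ccn1 and Ccn2 could not be fitted under the stricter filter.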
